A study of Mus musculus with 3 samples.

Results

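The genes described here are 39 splicing regulators of the mouse, chosen by name: 10 SR proteins, the 2 TRA2 proteins, 17 hnRNPs, 3 polypyrimidine tract binding proteins, 3 muscleblind proteins, 2 CELF proteins, and Rbfox2 with Qk. All 39 were found among the 22706 genes of the files and all 39 lie among the 11463 that were compared. RNA-seq of polyadenylated RNA was made from C2C12 cells, a mouse line of mesenchymal precursors that can be turned towards muscle or bone, with 1 library in each of 3 groups. Mock-transfected cells kept in growth medium with 20% serum gave the mock library. The shKSRP-labelled library came from cells in the same medium, transfected with a short hairpin RNA (shRNA) against KSRP, the RNA-binding protein encoded by Khsrp. Mock-transfected cells with the label DM + BMP2 gave the BMP2 library. By the protocol, differentiation medium (DM) holds 2% horse serum, and BMP2, a bone morphogenetic protein that turns these cells towards osteoblasts, was used at 100 to 300 ng/ml. The labels do not say which hairpin or which clone was used.

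SR proteins bind exons through an RNA recognition motif and recruit the spliceosome through a domain rich in arginine and serine. Many hnRNPs and the polypyrimidine tract binding proteins more often repress the exons they flank, and muscleblind, CELF and RBFOX proteins set the exon choices of maturing muscle. Genes of SR proteins and related factors carry their own switch. An exon with an early stop codon (a poison exon), once included, sends the transcript to nonsense-mediated decay.

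The value for a gene is its FPKM (fragments per kilobase of transcript scaled to all mapped fragments), summed over its RefSeq transcripts and over the transcripts assembled at its locus in that library. The ± is the half-width of the deposited 95% interval and covers counting and assignment error only. Differences are log2 ratios of FPKM + 1, which understates changes at low values, and a 2-fold ratio in either direction was called. Each group has 1 library, so no difference could be set against replicate spread and no test was made. All comparisons share libraries, so they do not support each other. Fewer cells with a transcript and less of it per cell cannot be told apart in such bulk samples.

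Interval widths corresponded to about 62.1 M (mega), 68.5 M and 60.4 M fragments in the mock, shKSRP-labelled and BMP2 libraries, which left the splicing regulators a median half-width of 2.31%, 2.08% and 2.24% of FPKM. Khsrp itself was at 31.4 ± 0.85 FPKM in mock, 28.4 ± 0.64 in the shKSRP-labelled library and 27.1 ± 0.67 in the BMP2 library. The label of a knockdown is therefore not borne out at the level of this mRNA, and every direction given for that library carries that doubt. Of the 5 myoblast markers, Myod1 was at 30.7, 34.8 and 17.3 FPKM, Des at 280, 185 and 218, and Vim at 5665, 3822 and 3775. Myf5 was at 7.75, 48.4 and 9.09 FPKM, higher than mock in the shKSRP-labelled library (log2 ratio 2.50). Cdh15 was at 38.3, 31.1 and 5.02, lower than mock in the BMP2 library (−2.71). The part of these marker differences in the results below was not tested. All 13 markers of epithelial, blood, endothelial and neural cells found in the files were below 1 FPKM in every library, and their summed level was 0.902, 0.49 and 0.973 FPKM.

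Several of these genes make transcripts that differ by 1 exon, and the exon sequences below carry the findings on them. They were read 5′ to 3′ from the GENCODE transcripts of the GRCm38 build by matching exon lengths, since the files use mm9. For exons with an in-frame stop codon in Srsf3 (chr17:29039454-29039909, plus strand), Srsf7 (chr17:80204622-80205081, minus strand) and Srsf11 (chr3:158024123-158024231, minus strand), the sequence runs from the exon's first base to that stop codon, in capitals:
Srsf3, 456-nt exon: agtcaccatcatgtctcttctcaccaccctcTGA
Srsf7, 460-nt exon: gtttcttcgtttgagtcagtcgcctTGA
Srsf11, 109-nt exon: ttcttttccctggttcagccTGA

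The stop codon begins at base 32 of the Srsf3 exon and leaves 124 codons, against 164 without the exon. In Srsf7 it begins at base 26 and leaves 137 codons, against 238. In Srsf11 it begins at base 21 and leaves 112 codons, against 121 without the exon, so the frame of the matched GENCODE transcript ends early in either form.

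Exons of Ptbp1 (chr10:79860117-79860194, plus strand), Ptbp2 (chr3:119724612-119724645, minus strand), Mbnl1 (chr3:60621423-60621458, plus strand) and Mbnl2 (chr14:120395712-120395765, plus strand) are shown whole. Their listed shares differed between the libraries, for all but Ptbp1 through assembled transcripts, and they change or interrupt the protein:
Ptbp1, 78-nt exon: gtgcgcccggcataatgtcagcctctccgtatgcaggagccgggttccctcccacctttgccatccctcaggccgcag
Ptbp2, 34-nt exon: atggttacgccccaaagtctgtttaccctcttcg
Mbnl1, 36-nt exon: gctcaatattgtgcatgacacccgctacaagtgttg
Mbnl2, 54-nt exon: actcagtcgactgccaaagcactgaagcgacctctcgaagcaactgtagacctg

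The Ptbp1, Mbnl1 and Mbnl2 exons are multiples of 3 bases and keep the frame. The Ptbp2 exon is not. Without it, a stop codon begins 24 bases after the new junction and the reading frame ends after 356 codons in place of 532.

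The splicing regulators as a group were abundant. In all 3 libraries 37 of the 39 stood at 10 FPKM or more, and 16 stood at 100 FPKM or more in mock. Levels ran from 0.936 FPKM for Mbnl3 in the BMP2 library to 458 for Hnrnpab in mock. The mock library held the highest value for 21 genes and the lowest for 6. Together they took 0.666% of all FPKM in mock, 0.653% in the shKSRP-labelled library and 0.59% in the BMP2 library.

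**Figure D1:**
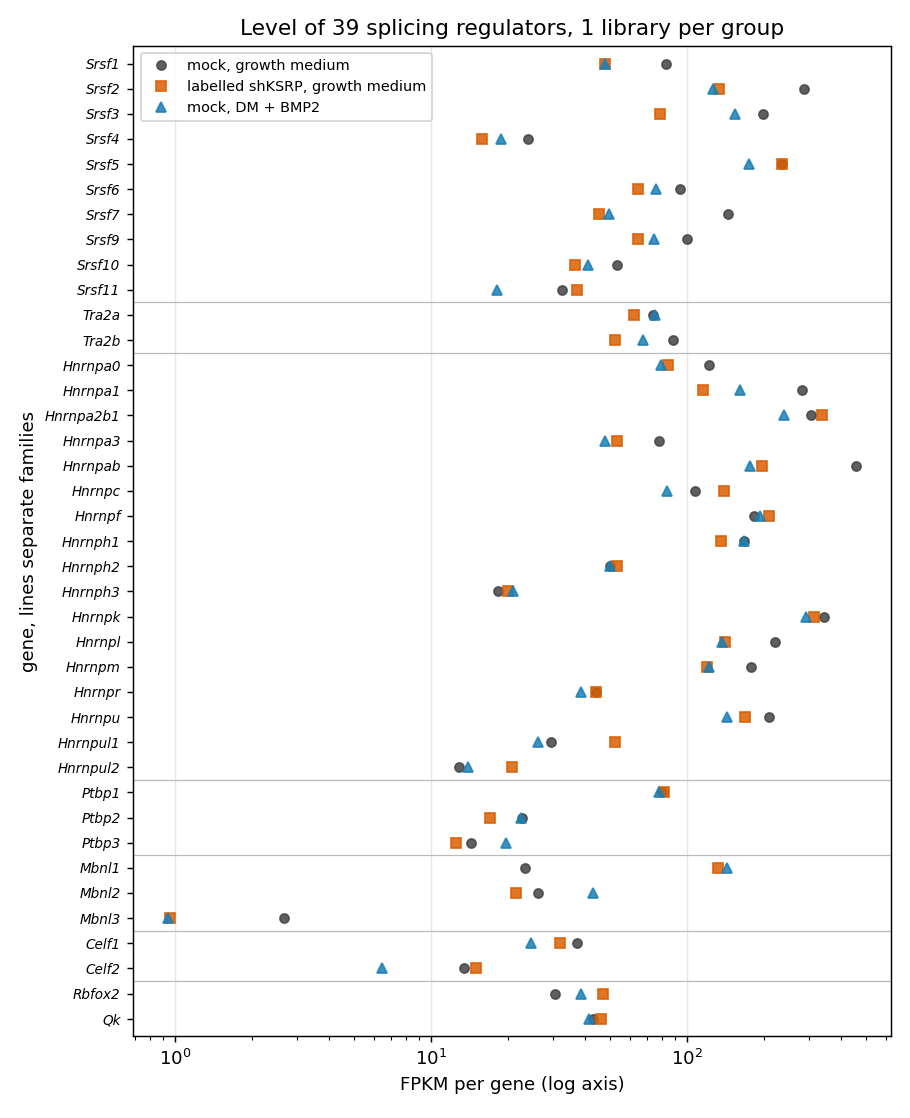
FPKM per gene on a log axis for the 39 splicing regulators, ordered by family, with 1 symbol per library and grey lines between families. Most SR proteins have their mock symbol to the right, while Mbnl1 has it far to the left (23.2 FPKM against 132 and 143).

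In the shKSRP-labelled library against mock, 1 splicing regulator was higher by 2-fold and 5 were lower. Over all 11463 genes 11.0% were higher and 12.9% were lower, so the number lower was near what that background gives for 39 genes. Mbnl1 was the one that was higher. Srsf2, Srsf3, Srsf7, Hnrnpa1 and Hnrnpab were lower. The median log2 ratio of the 39 was −0.28 beside −0.02 for all genes, and 25 of 39 lay below 0, beside 50.9% of all genes. In the BMP2 library against mock, Mbnl1 was again the 1 gene higher, and Srsf2, Srsf7 and Hnrnpab made 3 lower, where 9.21% and 8.95% of all genes were higher and lower. The median was −0.36 beside 0.03 for all genes, and 29 of 39 lay below 0, beside 47.2% of all genes. Between the shKSRP-labelled library and the BMP2 library, 1 gene (Celf2) was higher and 0 were lower, with 6.07% and 8.66% of all genes called. There the median was 0.07 beside −0.02.

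**Figure D2:**
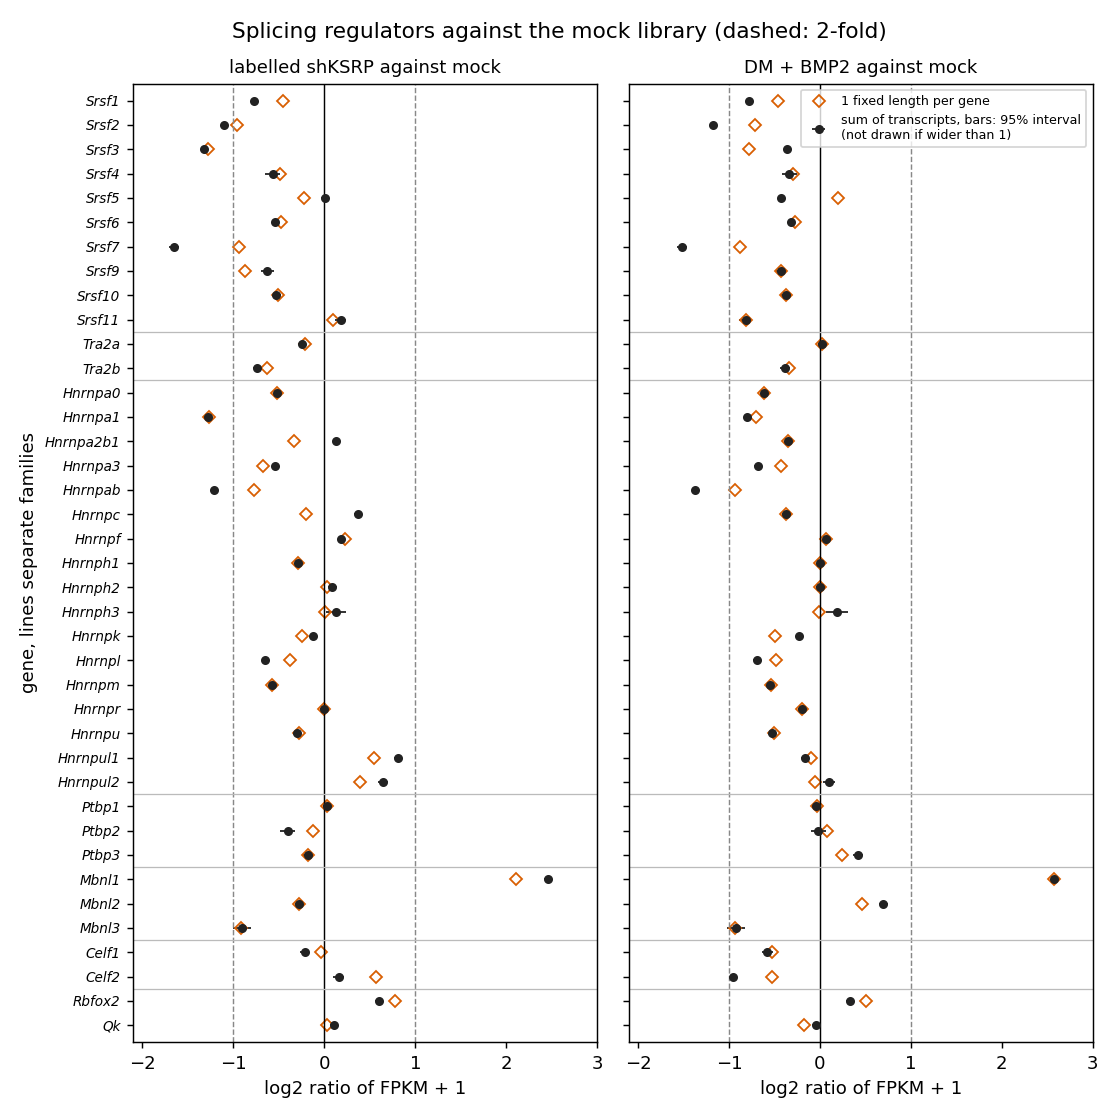
Log2 ratios of FPKM + 1 against mock for the 39 genes, in the shKSRP-labelled library (left) and the BMP2 library (right), as the sum of transcripts (black, with 95% interval) and with 1 fixed length per gene (open orange diamonds). Srsf2, Srsf7 and Hnrnpab cross the dashed 2-fold line as sums and stay short of it with a fixed length, while Mbnl1 lies beyond it by both in both panels.

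Summed over their transcripts, the SR proteins were lower than in mock almost throughout. All 10 had a log2 ratio below 0 in the BMP2 library, with a median of −0.43, beside 47.2% of all genes. In the shKSRP-labelled library 8 of 10 did, with a median of −0.60, beside 50.9%. The 2-fold rule called 2 and 3 of them lower (20.0% and 30.0%, beside 8.95% and 12.9% of all genes) and 0 higher. Srsf5, which stood at 235 ± 4.5 in mock and 236 ± 4.8 FPKM in the shKSRP-labelled library, and Srsf11 were the exceptions. With 1 fixed length per gene Srsf5 was below 0 in the shKSRP-labelled library (−0.22) and above 0 in the BMP2 library (0.20). From RefSeq transcripts alone Srsf1, Srsf2 and Srsf4 lay above 0 in the BMP2 library (0.11, 0.047 and 0.13) and the other SR genes below it. In the shKSRP-labelled library only Srsf1 lay above 0 that way (0.11).

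Srsf2 (chromosome 11, 116711211 to 116714408, minus strand, mm9, as are all gene positions here) activates exons and also acts in transcription elongation. It was the most abundant SR gene in mock, at 286 ± 4.7 FPKM, with 133 ± 2.8 in the shKSRP-labelled library and 127 ± 2.1 in the BMP2 library. Mock stood apart and the other two libraries lay close together (log2 ratios to mock −1.10 and −1.17). The RefSeq transcript alone read 123, 73.0 and 127 FPKM. An assembled 2-exon piece of 994 nt held the other 164 FPKM in mock. With the fragments spread over 1 fixed length the ratios were −0.96 and −0.71, short of 2-fold. Without the trend over transcript length, the ratio in the shKSRP-labelled library was −0.89.

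Srsf3 (chromosome 17, 29169605 to 29180317, plus strand) is a small SR protein that links splicing to mRNA export. It stood at 198 ± 2.2 FPKM in mock, 78.6 ± 1.5 in the shKSRP-labelled library and 155 ± 3.5 in the BMP2 library. As a sum of transcripts the shKSRP-labelled library was the low one, at 39.6% of mock (log2 ratio −1.32), and this call held with a fixed length (−1.28). In the BMP2 library the ratio was −0.36 as a sum and −0.78 with a fixed length. In that library 41.6% of the FPKM stood on an assembled transcript of 861 nt. RefSeq transcripts alone read 198 FPKM in mock, 78.6 in the shKSRP-labelled library and 90.3 in the BMP2 library. Both ratios then passed 2-fold (−1.32 and −1.13), so the distance between these libraries rests on that assembled transcript.

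The listed share of the poison exon of Srsf3 differed between the libraries too, by 18.0 points at most. Over all compared genes, 60.4% of exons held by some transcripts and skipped by others differed by 20 points or more. The Srsf3 difference is small beside that background. Transcripts with the 456-nt exon held 0 FPKM in mock, 14.1 ± 0.66 in the shKSRP-labelled library and 17.6 ± 0.79 in the BMP2 library. That is 0%, 18.0 ± 0.75% and 11.4 ± 0.52% of the gene, or 0%, 18.0% and 19.5% from RefSeq transcripts alone. The exon was thus seen in both libraries with less Srsf3 and was listed at 0 in mock. These estimates rest on how Cufflinks split the fragments of 1 gene among its transcripts.

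Srsf7 (chromosome 17, 80599420 to 80606645, minus strand) is the SR protein closest in sequence to Srsf3. It stood at 144 ± 3.7 FPKM in mock, 45.2 ± 1.3 in the shKSRP-labelled library and 49.6 ± 1.4 in the BMP2 library, with log2 ratios of −1.65 and −1.52. Mock was high, and 71.5 FPKM of it stood on an assembled transcript of 758 nt. With a fixed length per gene the ratios were −0.94 and −0.87, short of 2-fold. The listed share of its poison exon ran the other way from that of Srsf3. Transcripts with the 460-nt exon held 17.4 ± 0.80 FPKM in mock, 13.7 ± 0.66% of the FPKM that could be assigned, and were listed at 0 in the other libraries. These shares differed by 13.7 points at most, where 60.4% of such exons over all compared genes differed by 20 points or more. From RefSeq transcripts alone the mock share was 31.5%. A 36-nt exon near the end of Srsf7, which keeps the frame, was in 100% of the assignable FPKM in mock, 75.1 ± 1.2% in the shKSRP-labelled library and 80.4 ± 1.0% in the BMP2 library. RefSeq transcripts alone gave 100% in all 3, so that difference rests on assembled transcripts.

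Srsf11 lay between the libraries without a call. It had 32.6 ± 1.0 FPKM in mock, 37.1 ± 1.1 in the shKSRP-labelled library and 18.1 ± 0.75 in the BMP2 library. The ratio between the last pair was 0.9975 on the log2 scale, just short of the rule. In the shKSRP-labelled library, 45.5 ± 1.4% of Srsf11 stood on an assembled transcript with the 109-nt exon, which was listed at 0 in the others. Transcripts without that exon thus held 20.2 FPKM there, against 32.6 and 18.1.

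The remaining SR proteins passed the rule in no comparison. Srsf1, the classical splicing activator, stood at 82.5 ± 1.4 FPKM in mock, 47.9 ± 0.84 in the shKSRP-labelled library and 47.7 ± 0.89 in the BMP2 library, a ratio of −0.77 and −0.78. In mock 46.3% of Srsf1 stood on assembled transcripts. RefSeq transcripts alone gave 0.11 in both libraries, and without the trend over transcript length both ratios passed the rule (−1.11 and −1.01). Srsf4, Srsf6, Srsf9 and Srsf10 had ratios from −0.63 to −0.53 in the shKSRP-labelled library and from −0.42 to −0.31 in the BMP2 library. In Srsf4 a 215-nt exon was in 71.0 ± 2.1% of the FPKM in mock and in 100% in the others, where no transcript without it was assembled. RefSeq has none without it either. Tra2b, an SR-like activator that binds purine-rich exons, was at 87.9 ± 2.1, 52.3 ± 1.2 and 67.2 ± 1.8 FPKM (−0.74 and −0.38). In mock 78.5% of Tra2b stood on assembled transcripts, and RefSeq transcripts alone turned the direction (1.42 and 0.61). Its relative Tra2a stayed closer to mock, with ratios of −0.25 and 0.02.

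Of the 17 hnRNPs, 0 were higher than mock by 2-fold in either library, and 2 and 1 were lower. Those lower made up 11.8% and 5.88% of the family, beside 12.9% and 8.95% of all genes. The median log2 ratio of the 17 was −0.12 in the shKSRP-labelled library and −0.35 in the BMP2 library. Hnrnpa1 (chromosome 15, 103070863 to 103075386, plus strand), a repressor that opposes SR proteins at many exons, stood at 282 ± 3.9 FPKM in mock, 115 ± 2.5 in the shKSRP-labelled library and 161 ± 2.9 in the BMP2 library. Mock was the highest and the shKSRP-labelled library the lowest (log2 ratios −1.28 and −0.81). The call in the shKSRP-labelled library held with a fixed length (−1.26). From RefSeq transcripts alone the BMP2 library also passed the rule, at 129 FPKM and a ratio of −1.12. Hnrnpa1 shares a Cufflinks locus with another gene and has many processed pseudogenes, so the division of its fragments is uncertain. Its 159-nt exon, which lengthens the protein from 320 to 373 codons, was in 18.8 ± 0.56%, 34.6 ± 1.0% and 19.5 ± 0.64% of its FPKM. RefSeq transcripts alone gave 18.8%, 34.6% and 0%, and the BMP2 share rests on 1 assembled transcript of 31.3 FPKM.

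Hnrnpab (chromosome 11, 51413602 to 51420383, minus strand), a relative of the AU-rich element binding protein of Hnrnpd, read 458 FPKM in mock, 197 ± 2.6 in the shKSRP-labelled library and 176 ± 2.6 in the BMP2 library. The mock value had an interval half-width of 751, wider than the value. There the FPKM was split over 4 overlapping transcripts. Its log2 ratios of −1.21 and −1.38 were therefore inside the interval, and with a fixed length they were −0.77 and −0.93. Of mock Hnrnpab, 69.9% stood on assembled transcripts, and RefSeq transcripts alone reversed the direction (0.51 and 0.35).

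Hnrnpk, a KH-domain protein that binds C-rich RNA, was the most abundant hnRNP with a narrow interval in mock, at 343 ± 3.8 FPKM, with 315 ± 3.5 and 292 ± 3.6 in the others. Hnrnpa2b1 was as abundant, at 306 ± 3.4, 335 ± 3.6 and 240 ± 3.0. Its 120-nt exon, which keeps the frame, was in 51.1 ± 0.55% of FPKM in mock, 70.8 ± 0.42% in the shKSRP-labelled library and 51.4 ± 0.64% in the BMP2 library. In the shKSRP-labelled library the RefSeq transcripts of Hnrnpa2b1 were listed at 0, and all of its FPKM stood on assembled ones. A 72-nt exon of Hnrnpk was in 78.4 ± 0.46%, 89.2 ± 0.33% and 100%. No RefSeq transcript skips it, so 100% means only that no skipping transcript was assembled. Hnrnpul1 and Hnrnpul2, relatives of the nuclear scaffold protein of Hnrnpu, had the highest ratios of the family in the shKSRP-labelled library, at 0.81 and 0.65, and −0.16 and 0.10 in the BMP2 library. With a fixed length the first pair was 0.54 and 0.40. The rest of the family (Hnrnpa0, Hnrnpa3, Hnrnpc, Hnrnpf, Hnrnph1, Hnrnph2, Hnrnph3, Hnrnpl, Hnrnpm, Hnrnpr and Hnrnpu) had ratios from −0.65 to 0.37 in the shKSRP-labelled library and from −0.70 to 0.19 in the BMP2 library.

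**Figure D3:**
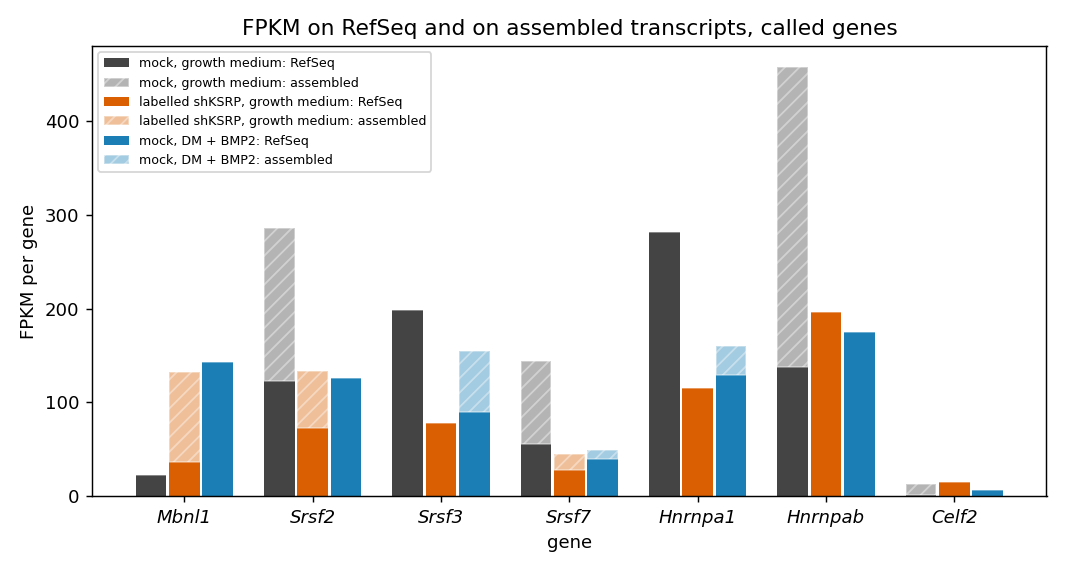
FPKM of the 7 genes called in any comparison, split into RefSeq transcripts (solid) and transcripts assembled in that library (hatched), stacked from 0, with 1 bar per library. In mock most of Srsf2, Srsf7, Hnrnpab and Celf2 is hatched, and in the shKSRP-labelled library most of Mbnl1 is.

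Ptbp1 represses neural and muscle exons in dividing cells, and its level did not follow that of the SR proteins. It stood at 79.6 ± 1.7 FPKM in mock, 81.2 ± 1.5 in the shKSRP-labelled library and 77.5 ± 1.6 in the BMP2 library. The intervals of mock overlapped those of both others (log2 ratios 0.03 and −0.04). Its isoforms differed more. The 78-nt exon, which lies in the linker between the second and the third RNA recognition motifs and makes PTBP1 a stronger repressor, was in 52.3 ± 1.0% of FPKM in mock, 64.4 ± 0.92% in the shKSRP-labelled library and 63.4 ± 1.0% in the BMP2 library. Both higher shares lay outside the interval of mock and rest on RefSeq transcripts alone in all 3 libraries. They differed from mock by 12.1 points at most. Over all compared genes, 60.4% of exons held by some transcripts and skipped by others differed by 20 points or more, so this difference is small beside that background.

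Ptbp2 is the neural relative of Ptbp1, and its 34-nt exon is a known target that PTBP1 silences. The gene stood at 22.8 ± 1.0, 16.9 ± 0.75 and 22.5 ± 0.97 FPKM, with ratios of −0.41 and −0.02, or 1.25 and 1.07 from RefSeq transcripts alone. Transcripts with the exon held 2.92 ± 0.29 FPKM in mock, 8.31 ± 0.42 in the shKSRP-labelled library and 7.23 ± 0.43 in the BMP2 library. In mock a further 3.72 ± 0.37 FPKM, on an assembled transcript, skipped it, so the share with the exon was 44.0 ± 3.5% there. The others were listed at 100%. No RefSeq transcript of Ptbp2 skips the exon, so 100% means only that no skipping transcript was assembled there. It does not measure a change of inclusion. Only 29.2%, 49.0% and 32.1% of the gene's FPKM could be assigned to either form. Ptbp3 was at 14.3, 12.6 and 19.6 FPKM, and its 34-nt exon was in 20.6 ± 1.3%, 11.1 ± 1.1% and 0% of what could be assigned.

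Mbnl1 (chromosome 3, 60305174 to 60433670, plus strand), which drives the switch from fetal to adult exons in muscle, showed the largest difference from mock of all 39 genes in both comparisons with mock. It stood at 23.2 ± 0.65 FPKM in mock, 132 ± 1.6 in the shKSRP-labelled library and 143 ± 1.3 in the BMP2 library. Mock was low, and the other two were at 570% and 618% of it (log2 ratios 2.46 and 2.58). The BMP2 value stood wholly on the RefSeq transcript of 10 exons. In the shKSRP-labelled library that transcript held 36.5 ± 0.75 FPKM, an assembled one of 10 exons 20.1 ± 0.61, and an assembled one of 4 exons from the 3′ part of the gene 75.6 ± 1.3. The RefSeq transcript alone gave a ratio of 0.63 there, short of 2-fold, and a fixed length gave 2.10.

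The 36-nt exon of Mbnl1, which lies near the end of the coding region, was in 100% of FPKM in mock and in the BMP2 library. In the shKSRP-labelled library it was in 64.5 ± 0.84% of the 42.8% of FPKM that could be assigned. The form without it is an assembled transcript there. No RefSeq transcript skips the exon, so 100% means only that no skipping transcript was assembled. Mbnl2 stood at 26.2 ± 0.61, 21.4 ± 0.52 and 43.1 ± 1.1 FPKM, with ratios to mock of −0.28 and 0.70. RefSeq transcripts alone read 7.31 FPKM in the BMP2 library and turned that ratio to −1.71. Its 54-nt exon, whose counterpart in Mbnl1 favours a nuclear protein, was listed at 0% in mock and in the shKSRP-labelled library and was in 33.9 ± 1.6% in the BMP2 library, where RefSeq transcripts alone listed it at 0%. A 95-nt exon of Mbnl2 was in 100% of mock and shKSRP-labelled FPKM and in 30.3 ± 1.5% in the BMP2 library. Both BMP2 shares are of the 56.0% of the gene's FPKM that could be assigned. Another 44.0% stood on an assembled transcript with a 53-nt form of the 95-nt exon, which ends at the same base. That transcript was not counted, so the 30.3% does not measure how often the exon was skipped. In the BMP2 library 83.0% of Mbnl2 stood on assembled transcripts. Mbnl3, which restrains muscle differentiation, was the scarcest of the 39, at 2.66 ± 0.16, 0.954 ± 0.10 and 0.936 ± 0.11 FPKM. Its ratios of −0.91 and −0.92 fell short of the rule with 1 FPKM added and passed it with 0.1 added (−1.39 and −1.41). Within the muscleblind genes, Mbnl1 and Mbnl3 thus lay on opposite sides of mock in both libraries.

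CELF proteins oppose muscleblind proteins at many muscle exons. Celf1, the more abundant, stood at 37.1 ± 0.95, 31.8 ± 0.83 and 24.5 ± 0.86 FPKM, all on assembled transcripts, with ratios of −0.22 and −0.58. Celf2 (chromosome 2, 6460744 to 7317825, minus strand) stood at 13.4 ± 0.48 in mock, 15.1 ± 0.40 in the shKSRP-labelled library and 6.43 in the BMP2 library. The BMP2 value had a half-width of 29.3, wider than itself, and the log2 ratio of 1.11 between the shKSRP-labelled library and BMP2 lies inside it. Against mock, the ratios of Celf2 were 0.16 and −0.95. In mock 89.0% of Celf2 stood on assembled transcripts, and RefSeq transcripts alone gave ratios of 2.70 and 1.59. Its 144-nt exon was in 45.8 ± 1.8% of FPKM in mock and in 100% in the shKSRP-labelled library. In the BMP2 library the share was 86.9% with a half-width of 208 points, wider than the value.

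Rbfox2 and Qk bind short motifs beside exons and promote muscle splicing. Rbfox2 stood at 30.6 ± 0.73, 47.0 ± 0.80 and 38.7 ± 0.77 FPKM, lowest in mock, with ratios of 0.60 and 0.33. Qk stayed near mock at 42.7 ± 0.81, 46.0 ± 0.95 and 41.5 ± 0.93. A 75-nt exon of Qk was in 100% of assignable FPKM in mock and the BMP2 library and in 59.3 ± 1.2% in the shKSRP-labelled library. No RefSeq transcript skips it between the same neighbours, so 100% means only that no skipping transcript was assembled.

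Exons that some transcripts of a gene hold and others skip between the same neighbours were found 33 times, and 27 of them, in 22 genes, had at least 5 FPKM on both forms together in each library. For 17 of the 27, in 14 genes, the share with the exon differed by 20 points or more between libraries. Over all compared genes 1843 such exons were read and 60.4% differed by as much, so the share of 63.0% in the splicing regulators lay near that background. Of the 27, 13 had a length that is a multiple of 3. The comparison of exons was added after the data had been seen. From RefSeq transcripts alone 12 exons could be read and 5 differed by 20 points. For the exons of Srsf4, Hnrnph3, Hnrnpk, Hnrnpul2, Ptbp2, Qk, Mbnl1 (36 nt) and Mbnl2 (95 nt), no RefSeq transcript skips the exon. Their 100% means only that no skipping transcript was assembled in that library. No RefSeq transcript holds the Srsf11 exon or the Rbfox2 exons of 32, 43 and 63 nt between those neighbours. Their 0% likewise means only that none was assembled. Among 18 genes with several RefSeq transcripts and RefSeq FPKM above 0 in every library, 11 had 1 transcript whose share of the RefSeq total differed by 20 points or more: Srsf1, Srsf5, Srsf7, Srsf11, Hnrnpa1, Hnrnpab, Hnrnpc, Ptbp3, Celf2, Rbfox2 and Qk. That is 61.1% of the 18, beside 42.7% of the 2036 compared genes of that kind, a description with no test.

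**Figure D4:**
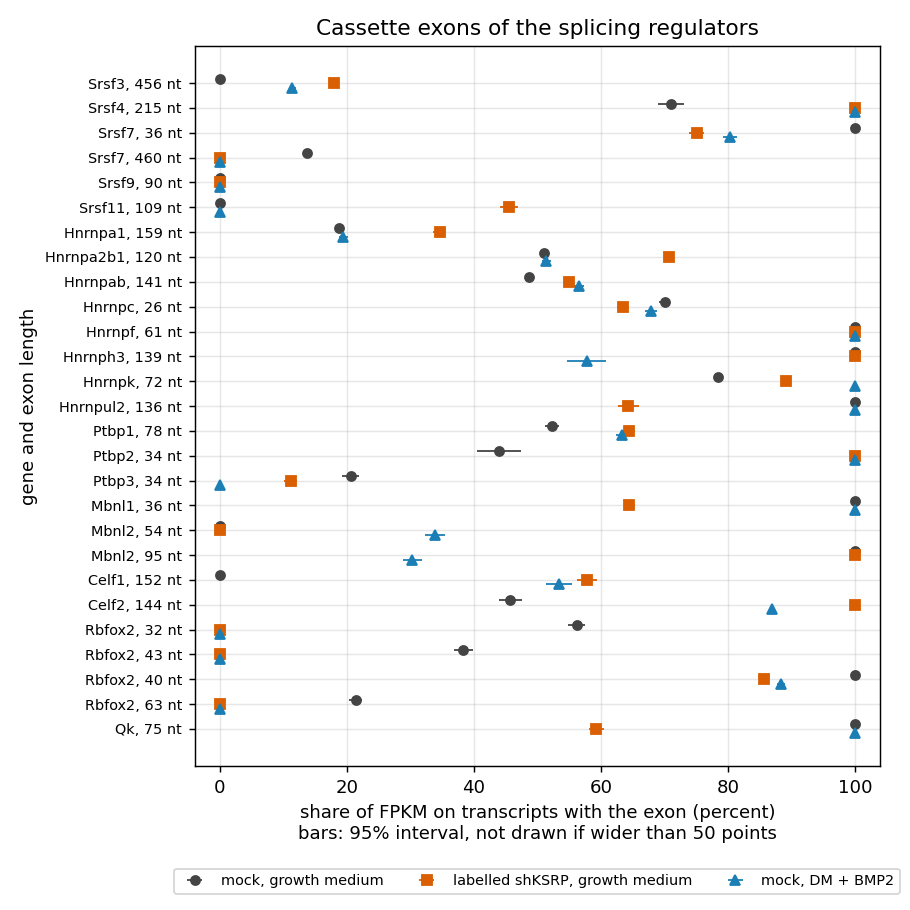
Share of FPKM on transcripts with the exon, in percent, for the 27 exons read in every library, with 1 symbol per library and 95% intervals as bars. The Srsf3 exon is at 0 only in mock and the 460-nt Srsf7 exon is at 0 in all but mock, and Ptbp1 shows 52.3% in mock beside 64.4% and 63.4%.

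The machinery these proteins act on was described from 4 further lists. Of 54 core spliceosome genes, 0 were higher and 18 lower by 2-fold in the shKSRP-labelled library, and 0 and 13 in the BMP2 library, with medians of −0.55 and −0.45. Those are 33.3% and 24.1% of the list, beside 12.9% and 8.95% of all genes. The 18 include Prpf3 and Snrpn, which were listed at 0 in the shKSRP-labelled library. Snrpf, an Sm ring protein, stood at 280 ± 11 FPKM in mock, 37.9 ± 1.8 in the shKSRP-labelled library and 96.6 ± 5.8 in the BMP2 library. Snrpd1, another Sm protein, stood at 282 ± 7.0, 66.7 ± 2.4 and 78.8 ± 2.7. In mock 77.6% of Snrpd1 stood on assembled transcripts. RefSeq transcripts alone gave it ratios of 0.07 and 0.31, and a fixed length −1.64 and −1.41. For Snrpf, RefSeq transcripts alone gave −1.26 and −1.09. Lsm5, of the ring on U6 RNA, stood at 149 ± 6.3, 42.4 ± 2.7 and 42.7 ± 2.8. Summed over transcripts, mock was high for each of the 3, and their ratios to mock ran from −2.85 to −1.53. In the BMP2 comparison the largest ratio was that of Eftud2, a GTPase of U5, at −1.91, or −0.64 with a fixed length. In mock 89.5% of Eftud2 stood on assembled transcripts, and RefSeq transcripts alone turned the ratio to 1.25. Core spliceosome transcripts are short, with a median longest RefSeq transcript of 1755 nt against 2809 for all genes, and ratios varied with transcript length. With a smooth trend over length taken out, 11 and 8 of the 54 were lower, and the medians were −0.33 and −0.30. Of all genes 11.2% and 8.9% were lower then, so the list stayed above that background. With a fixed length 18 and 12 of the 54 were lower, beside 10.9% and 7.24% of all genes.

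Of 6 compared SR kinases (Srpk1, Srpk2 and the Clk genes), which phosphorylate the arginine-serine domain, 0 were higher or lower than mock in either library. All 6 had a ratio above 0 in the BMP2 library, from 0.06 for Clk4 to 0.91 for Clk1, where all 10 SR proteins lay below 0 as sums of transcripts. Of all genes 47.2% lay below 0 there. With a fixed length Srpk1 fell below 0 (−0.44) and Srsf5 lay above it (0.20). In the shKSRP-labelled library 4 of the 6 kinases lay below 0 (median −0.14), as did 8 of the 10 SR proteins and 50.9% of all genes. Of 13 SR-related proteins 0 were called in the shKSRP-labelled library. In the BMP2 library Srrm2, a scaffold of nuclear speckles, was higher (20.5, 41.7 and 114 FPKM, ratio 2.41) and Srrm1 was lower (40.1, 29.5 and 17.3 FPKM, ratio −1.16). Neither passed with a fixed length (0.63 and −0.58). Each made up 7.69% of the list, where 9.21% of all genes were higher and 8.95% lower.

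Of 30 other RNA-binding regulators, 3 were higher and 3 lower in the shKSRP-labelled library, and 0 and 2 in the BMP2 library. Rbm24, a muscle splicing factor, stood at 0.905 ± 0.13 FPKM in mock, 12.2 ± 0.61 in the shKSRP-labelled library and 1.13 ± 0.15 in the BMP2 library. The shKSRP-labelled library stood alone, with ratios of 2.79 to mock and 2.63 to BMP2, and 2.56 and 2.40 with a fixed length. Hnrnpd, which encodes the AU-rich element binding protein AUF1, stood at 205 ± 4.3, 32.5 ± 0.94 and 77.8 ± 2.4 FPKM (−2.62 and −1.39). All of it in mock was on assembled transcripts at a shared locus, and with a fixed length the ratios were −1.42 and −0.74. Celf4 was lower in the shKSRP-labelled library (−1.62, from 3.12 to 0.344 FPKM), also at a shared locus.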

How the data were processed

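Polyadenylated RNA of 3 C2C12 libraries was sequenced on an Illumina HiSeq 2000, per the labels' protocols. The authors deposited Cufflinks transcripts with FPKM, its 95% bounds and a score per transcript (not used), per the file headers. Per the submitters' processing notes, Cufflinks 1.3.0, TopHat 1.4.1, Bowtie 0.12.7, CASAVA 1.8 and the mm9 build were used, with no settings given in the sources used here. Whether strand was marked is not given either. Each library was assembled on its own.

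RefSeq transcripts were matched to symbols, and assembled transcripts went to the gene of their Cufflinks locus, or to the gene they overlapped most (none overlapped: left out). Genes with 1 FPKM in any library and a RefSeq transcript of 300 nt were compared as log2 ratios (FPKM + 1) with a 2-fold rule. The rule was run on simulated data with little noise and planted changes larger than 2-fold. Replicate spread and the split of fragments among transcripts were not simulated, so that run checks the code and not the calls. For a fixed length, FPKM times transcript length was summed per gene and divided by 1 length. Half-widths combine transcripts as if independent. The share of an exon uses transcripts that hold or skip it between the same neighbours. Python 3.11.15, numpy 2.4.6, pandas 2.3.3 and statsmodels 0.14.6 were used.

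The genes and lists were chosen with earlier results of these data known. Named in full were all genes called in any comparison and the most abundant of each family. From other lists at most 3 were named, by size of ratio among genes above 0. Alternatives covered the pseudocount, filter, transcripts counted, length, scaling and fold. Exon shares, their background over all genes and the omission of shared loci were added after seeing the data.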

Additional observations from a re-analysis of the deposited data

How the results depend on the processing

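No paired analysis was possible because each group holds 1 library and no test was run; no replicate could be left out. Each comparison gave 428 values of single genes under alternatives. A called direction reversed in 1 (shKSRP-labelled library against mock), 3 (BMP2 against mock) and 0 (between the treated libraries). These were Hnrnpab from RefSeq transcripts alone (0.51 and 0.35) and Srsf2 in the BMP2 library from RefSeq transcripts, alone or the most abundant (0.047 in both). Calls were lost in 11, 6 and 2 further values and gained in the main direction in 14 in each comparison. Uncalled genes passed 2-fold in the opposite direction in 10, 7 and 11 values (5, 4 and 6 genes), all from the 2 RefSeq-only settings: in the shKSRP-labelled library against mock Tra2b, Hnrnpa2b1, Hnrnpc, Hnrnph2 and Ptbp2, in BMP2 against mock Ptbp2, Ptbp3, Mbnl2 and Celf2, and between the treated libraries Hnrnpa2b1, Hnrnpa3, Hnrnpc, Hnrnph2, Ptbp3 and Mbnl2. The other single-gene values kept their call or lack of one.

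For the shKSRP-labelled library against mock, with 1 higher and 5 lower and a median of −0.28, RefSeq transcripts alone gave 5 and 8, the most abundant RefSeq transcript 4 and 8, and a 1.5-fold rule 4 and 10. Of all genes, 16.4% and 12.7% were higher and lower from RefSeq transcripts alone and 21.6% and 24.2% at 1.5-fold. The most abundant RefSeq transcript gave 16.6% and 13.0% of all genes. A fixed length left 2 lower (Srsf3 and Hnrnpa1), beside 10.9% of all genes. The median was −0.23 at equal upper quartiles and −0.35 without the length trend.

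For BMP2 against mock, with 1 higher and 3 lower and a median of −0.36, RefSeq transcripts alone gave 4 and 6 (median −0.039), the most abundant one 3 and 5 (−0.21), and a 1.5-fold rule 2 and 11. Of all genes, 13.2% and 10.3% passed from RefSeq transcripts alone and 19.4% and 18.4% at 1.5-fold. The most abundant RefSeq transcript gave 13.5% and 10.4% of all genes. Lower genes numbered 5 with 0.1 FPKM added, 0 with a fixed length and 6 without the length trend. Of all genes 10.7%, 7.24% and 8.9% were lower under these settings. Without the 8 genes at shared loci, the median was −0.31.

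For the shKSRP-labelled library against BMP2, with 1 higher and 0 lower and a median of 0.07, the counts were 3 and 1 with 0.1 FPKM added, 4 and 5 from RefSeq transcripts, 3 and 5 from the most abundant one, 2 and 1 without the length trend, and 4 and 3 at 1.5-fold. Of all genes, 10.1% and 9.33% passed from RefSeq transcripts alone and 13.3% and 17.6% at 1.5-fold. The shares were 10.1% and 9.59% from the most abundant one, 7.97% and 11.2% with 0.1 FPKM added, and 5.93% and 8.32% without the length trend. Both rescalings (to a median ratio of 0 and to equal upper quartiles) gave 3 higher, and adding 5 FPKM or leaving out shared loci gave 0. Of all genes 6.37% and 6.61% were higher after the rescalings, and 2.92% with 5 FPKM added. The median was 0.00 from the most abundant RefSeq transcript, 0.013 with a fixed length and 0.12 at equal upper quartiles. Exons that differed by 20 points numbered 17, or 5 from RefSeq transcripts alone. The other alternatives kept each count within 1.5 times.

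Mbnl1 kept its call in the BMP2 library under every alternative run, and in the shKSRP-labelled library under all but the RefSeq-only ones (0.63). The levels of 21 of the 39 genes rest mainly on assembled transcripts in at least 1 library, and 6 genes have none. Median half-widths were 2.08% to 2.31% of FPKM. They hold no replicate error, and the split of fragments among transcripts enters them only in part.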

Other observations

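Rbfox2 was assembled in a different form in mock. The RefSeq transcripts held 10.5 ± 0.40 FPKM in mock, 47.0 ± 0.80 in the shKSRP-labelled library and 38.7 ± 0.77 in the BMP2 library. In mock the other 20.1 FPKM stood on 2 assembled transcripts. One of them held a 32-nt exon (56.2 ± 1.3% of what could be assigned), and the other held exons of 43 nt (38.3 ± 1.5%) and 63 nt (21.4 ± 0.99%). All 3 exons were listed at 0% in the other libraries. The 43-nt exon matched a coding exon of GENCODE, while the 32-nt and 63-nt exons were matched to none.

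Skipped exons that break the frame appeared in 1 library for 2 hnRNPs. A 139-nt exon of Hnrnph3 was in 100% of FPKM in mock and the shKSRP-labelled library and in 57.8 ± 3.0% in the BMP2 library. Without it the reading frame ends after 71 codons in place of 346. A 136-nt exon of Hnrnpul2 was in 64.3 ± 1.6% in the shKSRP-labelled library and in 100% of assignable FPKM in the others, and the frame without it ends after 198 codons in place of 745. In Celf1 a 152-nt exon was listed at 0% in mock and in 57.8 ± 1.5% and 53.4 ± 2.1% in the others, over 25.8%, 70.8% and 60.6% of the gene's FPKM. Each of these rests on assembled transcripts. No RefSeq transcript of Hnrnph3 or Hnrnpul2 skips the exon, so their 100% means only that no skipping transcript was assembled.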
